A study of Mus musculus with 20 samples.

Results

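The genes described are the mouse orthologs of 7 genes that human genetic studies of fatty liver have named: Pnpla3, Tm6sf2, Mboat7, Hsd17b13, Gckr, Mertk and Lyplal1. They were chosen by symbol, with earlier results of these data known. All 7 were found among the 46095 gene symbols of the table and among the 14440 genes that passed the low-count filter. The levels were measured by RNA sequencing of whole liver from 20 mice. WT mice and mice with a liver-specific knockout of Pck1 (Pck1-cKO) were fed chow or a NASH diet, named for non-alcoholic steatohepatitis, and Pck1 encodes an enzyme of glucose synthesis. The study asked what part Pck1 plays in diet-induced steatohepatitis.

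Each of the 4 groups (WT chow, WT NASH, Pck1-cKO chow and Pck1-cKO NASH) held 5 mice aged 31 to 33 weeks, fed for 24 weeks. The labels name the knockout as liver-specific and do not name the Cre driver, the floxed allele or the background strain. The deposited columns call the second diet HFD, and these columns were taken as the NASH groups. Values are CPM, read counts relative to the library total, with library sizes scaled by TMM, and a gene was called where edgeR's quasi-likelihood test gave a Benjamini-Hochberg adjusted p under 0.05 over all 14440 genes. A log2 change is the first-named group minus the second.

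In liver, fat is made from sugar in the cytosol, stored in lipid droplets and exported in very low density lipoprotein particles. The 7 genes differ in what their products do, and not all are placed in this system. Pnpla3 and Hsd17b13 encode enzymes of the lipid droplet surface, Tm6sf2 serves the lipid loading of the exported particles, Mboat7 remodels phosphatidylinositol, Gckr encodes a regulatory protein of hepatic sugar metabolism, Mertk is a receptor for dying cells on macrophages, and Lyplal1 belongs to the acyl-protein thioesterase family.

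On GRCm38 the GENCODE M21 annotation places all 7 as protein-coding genes: Pnpla3 at chr15:84167837-84187236, Hsd17b13 at chr5:103955440-103977410, Tm6sf2 at chr8:70072924-70080066, Mboat7 at chr7:3677789-3693523, Gckr at chr5:31297443-31327314, Mertk at chr2:128698956-128802894 and Lyplal1 at chr1:186087731-186117310. Hsd17b13 and Gckr share chromosome 5 but lie far apart. Upstream windows of 250 bases were found in the RefSeq promoter table (GRCm38.p6) for 6 of the 7 members, all but Tm6sf2. The 3 members whose level was called different in at least 1 comparison, Pnpla3, Hsd17b13 and Gckr, are shown 5′ to 3′ on the gene's strand, because they carry the called differences. Each stretch stops before the start of transcription in both RefSeq and GENCODE. Capitals mark matches, on either strand, to the motifs named below.
Pnpla3: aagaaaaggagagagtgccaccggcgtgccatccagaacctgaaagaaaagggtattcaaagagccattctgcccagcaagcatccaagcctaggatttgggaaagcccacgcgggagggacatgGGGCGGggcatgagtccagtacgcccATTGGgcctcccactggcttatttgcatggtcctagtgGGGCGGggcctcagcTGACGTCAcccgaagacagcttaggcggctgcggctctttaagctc
Hsd17b13: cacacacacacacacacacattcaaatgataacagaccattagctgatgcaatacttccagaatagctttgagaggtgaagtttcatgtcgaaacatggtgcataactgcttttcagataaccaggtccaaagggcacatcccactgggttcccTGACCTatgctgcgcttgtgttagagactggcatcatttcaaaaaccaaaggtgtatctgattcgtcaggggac
Gckr: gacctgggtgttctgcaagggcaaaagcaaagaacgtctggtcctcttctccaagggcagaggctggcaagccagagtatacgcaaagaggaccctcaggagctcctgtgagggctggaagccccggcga

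The stretches are chr15:84167566-84167815 (plus strand), chr5:103977411-103977638 (minus strand) and chr5:31297313-31297442 (plus strand). In all, 7 letter strings were searched in the 250-base windows on both strands, with no overlap between the matches of different motifs in these windows. The Pnpla3 window held TGACGTCA, the cyclic AMP response element, at -46 from the RefSeq start, a string found in 1.55% of the 32841 upstream windows. It also held CCAAT, read on the opposite strand, at -99 (in 33.9% of windows) and the GC box GGGCGG at -125 and -61 (in 32.7%). The Hsd17b13 window held AGGTCA, a nuclear receptor half-site, on the opposite strand at -96 (in 14.03%). The Gckr window held the HNF1 half-site GTTAAT at -59 (in 6.43%) and CCAAT on the opposite strand at -9, both downstream of the GENCODE start and so outside the stretch shown. The sterol regulatory element TCACNCCAC was found in 1.05% and the E-box CACGTG in 6.02% of all windows, and neither string occurred in the windows of these 3 genes. Of the other 3 members with a window, Mertk held GGGCGG at 3 positions, Lyplal1 held it once together with 1 AGGTCA, and Mboat7 held it once. A match describes the letters of the window.

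Some features of the libraries bear on every result. Library totals ran from 9958935 to 20601955 counts. Pck1 itself was at 1707 to 4641 CPM in WT chow livers and 1701 to 2975 in WT NASH livers against 458 to 861 in Pck1-cKO chow and 300.4 to 542 in Pck1-cKO NASH, with no overlap between genotypes. All 8 hepatocyte markers were present, with summed levels of 49838 to 137257 CPM over the 20 libraries. The labels give no sex, and counts of 4 Y-linked genes split the libraries into 13 with 2753 to 5230 counts, taken as male, and 7 with 1 to 12, taken as female. WT chow held 5 males, WT NASH 1 male (mouse 4) and 4 females, Pck1-cKO chow 3 males and 2 females (mice 3 and 5), and Pck1-cKO NASH 4 males and 1 female (mouse 2). Libraries also differed in how levels ran with gene length: the slope of log2 CPM on log2 exonic length was -0.34 to -0.25 in 6 libraries (WT chow 3, 4 and 5, WT NASH 4, Pck1-cKO chow 4 and 5) and 0.01 to 0.19 in the other 14. Sex and diet are nearly confounded in WT mice, so calls of the members are given also with these features in the model, and a call of another gene that was lost with sex as a term is said to be so.

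**Figure D1:**
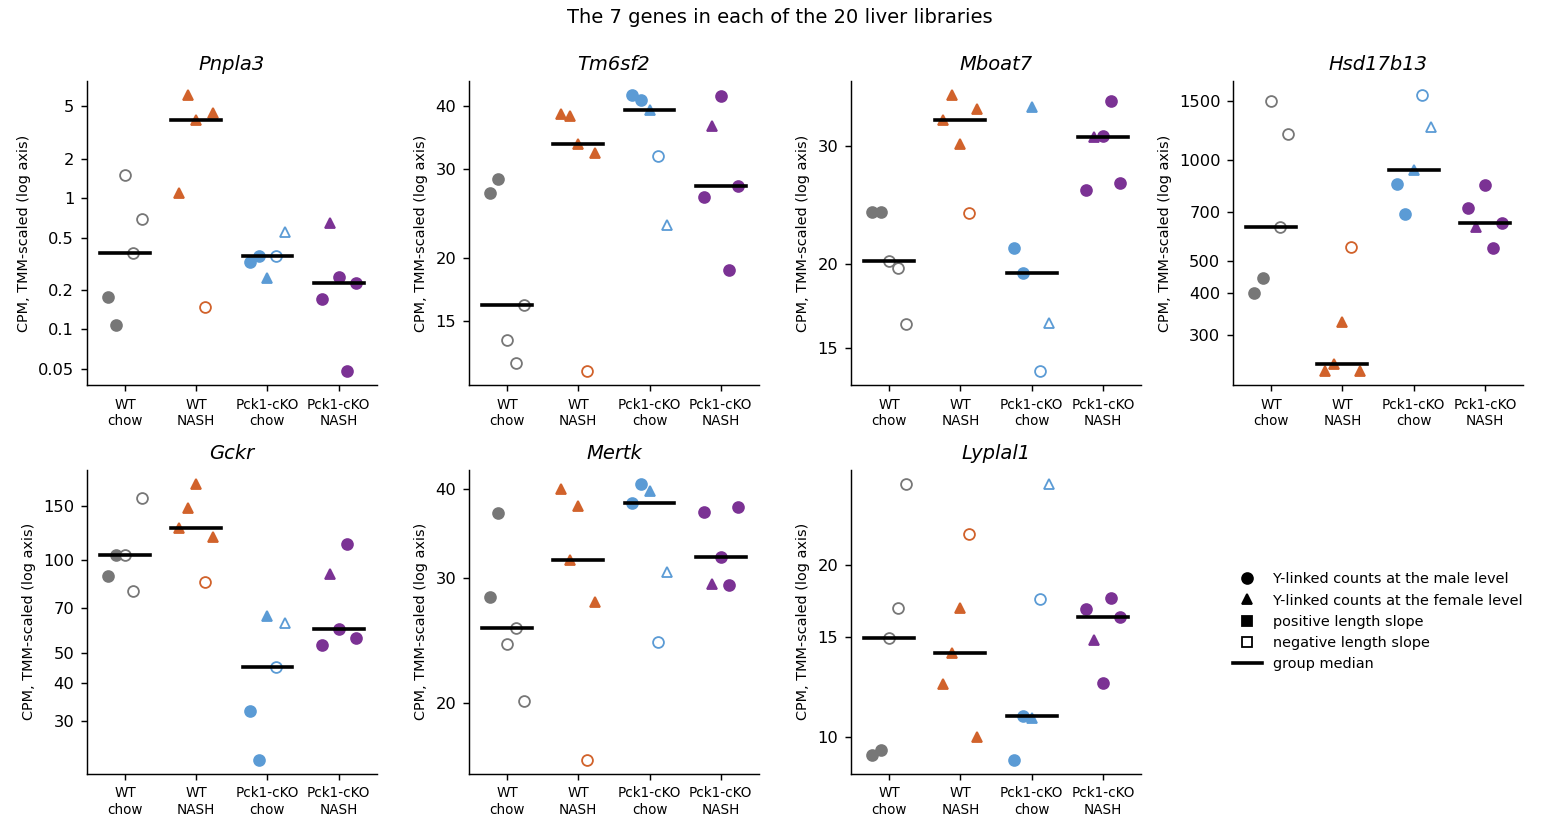
Level of each of the 7 genes in each library (CPM, log axis; each panel has its own range), 5 mice per group. Circles are libraries with Y-linked counts at the male level and triangles at the female level, open symbols have a negative length slope, and bars are group medians. The 4 WT NASH triangles lie highest in the Pnpla3 panel apart from 1 WT chow library, and the Gckr panel shows all Pck1-cKO chow libraries below all WT chow libraries.

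The 7 genes spanned a wide range of levels. Per kilobase of exonic length, Hsd17b13 was highest in every group, at 387 ± 227 CPM per kb in WT chow and 491 ± 163 in Pck1-cKO chow (mean ± SD, n = 5). Pnpla3 was lowest in every group on the same scale, from 0.172 ± 0.144 in Pck1-cKO NASH to 2.03 ± 1.59 in WT NASH. In WT chow, Gckr followed Hsd17b13 at 24.8 ± 7.16, then Tm6sf2 at 10.3 ± 4.03, Lyplal1 at 9.92 ± 4.78, Mertk at 6.22 ± 1.46 and Mboat7 at 2.50 ± 0.386 CPM per kb. Tm6sf2 and Lyplal1, neighbours in that order, differed by less than their SDs. In Pck1-cKO chow the order changed in that Tm6sf2, at 18.7 ± 4.20, stood above Gckr, at 10.5 ± 4.34 CPM per kb, followed by Lyplal1 (9.63 ± 4.87) and Mertk (8.01 ± 1.62). There Gckr and Lyplal1 differed by less than their SDs.

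Over the whole set, WT NASH against WT chow had 2 of the 7 members called, 1 higher (Pnpla3) and 1 lower (Hsd17b13). Of all tested genes 5.93% were called there. Sex and diet are nearly confounded in this comparison, and with sex as a term 0 of the 7 members were called. Loss of Pck1 on chow changed 1 of 7, Gckr, which was lower, against 5.53% of all genes. Pck1-cKO NASH against WT NASH had 1 of 7 called, Pnpla3, which was lower, against 9.65%, and 0 with sex as a term. The NASH diet in Pck1-cKO mice changed 0 of 7 against 3.29%, with 2 members at an unadjusted edgeR p under 0.05, 0 called by DESeq2 and 2 by limma voom. For the interaction, meaning the knockout effect under NASH feeding minus the one under chow, 0 of 7 were called against 0.139%, again with 2 at an unadjusted p under 0.05, 0 by DESeq2 and 2 by limma voom. The shares of all genes called by DESeq2 and limma voom are not given here. Non-overlap of the 5 and 5 libraries was met by 1 of 7 members (Gckr) for Pck1-cKO against WT on chow, where 4.91% of all genes met it, and by 0 of 7 in WT NASH against WT chow (6.15% of genes), Pck1-cKO NASH against WT NASH (14.1%) and Pck1-cKO NASH against Pck1-cKO chow (8.5%). Median log2 changes of the 7 were 0.29, 0.01, -0.04 and -0.07 in WT NASH against WT chow, the knockout on chow, the knockout on the NASH diet and the diet in knockouts, where those of all tested genes were 0.01, 0.00130, 0.00397 and -0.02. These comparisons share groups with one another, so a gene's values in them are given side by side and are not independent.

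**Figure D2:**
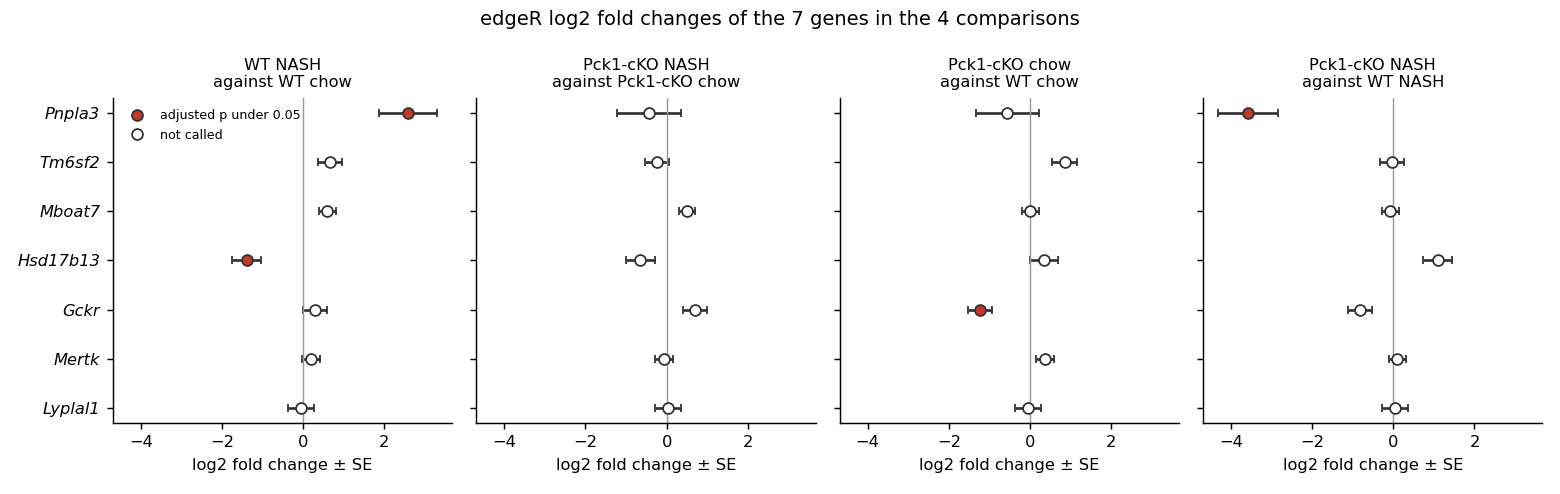
edgeR log2 change of each gene in the 4 comparisons, with bars of 1 SE; filled points have an adjusted p under 0.05. The filled points are Pnpla3 (2.58) and Hsd17b13 (-1.39) for the diet in WT mice, Gckr (-1.23) for the knockout on chow and Pnpla3 (-3.57) for the knockout on the NASH diet, and the other points lie within about 1 log2 unit of 0 apart from Hsd17b13 for the knockout on the NASH diet (1.09).

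Pnpla3 encodes a lipid droplet protein with lipase activity on triglycerides and retinyl esters, and is known as a target of the transcription factor made from Srebf1. It was at 0.178, 0.108, 1.49, 0.380 and 0.693 CPM in mice 1 to 5 of WT chow and 1.10, 6.11, 3.94, 0.147 and 4.46 in those of WT NASH. Pnpla3 was at 0.324, 0.362, 0.248, 0.363 and 0.547 CPM in Pck1-cKO mice 1 to 5 on chow and 0.171, 0.641, 0.248, 0.0479 and 0.227 on the NASH diet. In WT NASH the 4 libraries of mice 1, 2, 3 and 5 stood above every Pck1-cKO library, while mouse 4 stood as low as the Pck1-cKO NASH group, and 1 WT chow library (mouse 3) stood above WT NASH mouse 1. These levels rest on few reads: 3, 2, 15, 4 and 10 counts in the WT chow mice, 17, 103, 65, 1 and 69 in the WT NASH mice, 7, 9, 5, 5 and 9 in Pck1-cKO chow and 4, 15, 4, 1 and 5 in Pck1-cKO NASH. Pnpla3 rose 5.98-fold in WT NASH against WT chow (2.58 ± 0.72 log2 units, SE, with adjusted p = 0.0380 by edgeR). It was 11.9-fold lower in Pck1-cKO NASH than in WT NASH (-3.57 ± 0.74 log2 units, SE, with adjusted p = 0.00537 by edgeR). Pnpla3 passed the low-count filter mainly through the 4 high WT NASH libraries, and both calls rest on that group. Both were also made with no low-count filter. On chow the knockout gave a log2 change of -0.55 (SE 0.77; adjusted p = 0.733) while the diet in knockouts gave -0.44 (SE 0.78; adjusted p = 0.754), neither called. The interaction of Pnpla3 was -3.02 (SE 1.06), with an unadjusted edgeR p of 0.00963 and an adjusted p of 0.357.

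The 4 high WT NASH libraries of Pnpla3 are the 4 taken as female, and the 1 male WT NASH library held 1 count. In the other groups the females were at 0.248 and 0.547 CPM in Pck1-cKO chow and at 0.641 CPM in Pck1-cKO NASH, the latter the highest of its group. With sex as a term, the Pnpla3 difference was 1.09 (adjusted p = 0.643) for the diet in WT mice and -2.63 (adjusted p = 0.0774) for the knockout on the NASH diet, in log2 units by edgeR. Both calls were lost. With sex and length slope as terms the knockout difference was -2.56 (adjusted p = 0.0479). In males alone, where WT NASH is the 1 library and is assumed to vary like the other groups, the edgeR values were -1.90 (adjusted p = 0.644) and 0.25 (adjusted p = 0.939). In females alone the knockout difference on the NASH diet was -2.59 (adjusted p = 0.505), with 1 Pck1-cKO NASH library. The diet call of Pnpla3 in WT mice was also lost without any 1 of WT chow mice 1, 2, 4 and 5, or WT NASH mice 2, 3 and 5, or Pck1-cKO NASH mouse 5 (log2 changes of 2.20 to 2.68, adjusted p = 0.0502 to 0.117 by edgeR). WT chow held no female, so the diet difference of Pnpla3 in WT mice and sex cannot be told apart, and the part of sex in its knockout difference was not tested beyond these fits.

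Genes of lipid synthesis under Srebf1 and Mlxipl, the transcription factors that answer to insulin and sugar, were counted beside Pnpla3. Of 16 listed, 6 rose and 0 fell in WT NASH against WT chow, where 5.93% of all tested genes were called. The 16 had a median log2 change of 0.87 against 0.01 for all genes. The 6 were Srebf1, Insig1, Fasn, Acaca, Acly and Pklr. In Pck1-cKO NASH against WT NASH 0 rose and 10 fell, against 9.65% of all genes called, with a median of -1.09. On chow the knockout gave 1 higher (Acacb, 1.67) and 2 lower (Mlxipl and Thrsp), against 5.53% of all genes called. The diet in knockouts gave 1 lower, Elovl6 (-2.10), against 3.29%. Fasn, the fatty acid synthase, showed the steepest rise among the called genes of the list in WT NASH (3.36 ± 0.51 log2 units, SE, with adjusted p = 0.000641 by edgeR) and Thrsp the steepest fall in Pck1-cKO NASH (-3.90 ± 0.73 log2 units, SE, with adjusted p = 0.00251 by edgeR). Acly, which makes acetyl-CoA in the cytosol, was also called for the interaction (-1.39, edgeR adjusted p = 0.0451), a call lost with sex as a term, -1.20 (adjusted p = 0.328). With sex as a term the counts were 3 higher for the diet in WT mice and 5 lower for the knockout on the NASH diet, the calls of Insig1, Acaca and Pklr being lost for the diet and those of Srebf1, Mlxipl, Insig1, Scd1 and Elovl6 for the knockout. In males alone the counts were 0 and 1. The shares of all genes called in these alternative fits are not given here. The list was assembled with earlier results of these data known.

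Srebf1 itself was at 22.2, 22.7, 15.7, 15.7 and 18.8 CPM in mice 1 to 5 of WT chow and 112, 149, 156, 53.7 and 112 in those of WT NASH. Srebf1 was at 37.1, 25.1, 46.3, 18.00 and 16.5 CPM in Pck1-cKO mice 1 to 5 on chow and 44.6, 82.5, 57.2, 64.3 and 49.02 on the NASH diet. All WT NASH libraries of Srebf1 were above all chow libraries of both genotypes, including male mouse 4, which held 1 Pnpla3 count. Srebf1 rose in WT NASH (2.61 ± 0.31 log2 units, SE, with adjusted p = 7.41e-05 by edgeR), kept the call with sex as a term, 2.06 (adjusted p = 0.00579) in log2 units, and was lower in Pck1-cKO NASH than in WT NASH (-0.97 ± 0.29 log2 units, SE, with adjusted p = 0.0417 by edgeR), a call lost with sex as a term, -0.56 (adjusted p = 0.315). In males alone neither was called, at 1.47 (adjusted p = 0.0772) and 0.03 (adjusted p = 0.962) by edgeR. Over the 20 libraries log2 CPM of Pnpla3 and Srebf1 gave Pearson r = 0.50 and Spearman rho = 0.21, with r = 0.80 over the 14 libraries of positive slope, a description of libraries that share group, sex and depth.

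The 2 genes whose log2 CPM followed Pnpla3 most closely over the 20 libraries, considering genes averaging 5 CPM or more, were Elp4 (r = 0.80) and Cux2 (r = 0.79). Cux2 encodes a transcription factor known for female-biased expression in mouse liver. Its mean CPM was 1.01 in WT chow, 27.4 in WT NASH, 3.25 in Pck1-cKO chow and 0.729 in Pck1-cKO NASH. Cux2 was at 27.6, 41.1, 25.1, 0.147 and 43.1 CPM in WT NASH mice 1 to 5, high in the 4 females and low in the male. The Pck1-cKO females were lower, at 3.27 and 10.3 CPM on chow (mice 3 and 5) and 2.35 on the NASH diet (mouse 2). The males of those groups were at up to 1.31 and 0.426 CPM.

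Other lipases and the proteins that regulate them, some of them outside the Pnpla family, were counted beside it. Of 8 tested, 0 rose and 2 fell in WT NASH (Pnpla8, -0.88, and G0s2, the inhibitor of Pnpla2, -2.96), where 5.93% of all tested genes were called. In Pck1-cKO chow 2 rose, against 5.53% of all genes, and in Pck1-cKO NASH against WT NASH 3 rose, against 9.65%. The Pnpla8 call was lost with sex as a term, -0.69 (adjusted p = 0.190) by edgeR, and that of G0s2 held, -3.46 (adjusted p = 0.0376). Pnpla2, the main triglyceride lipase of the droplet, was at 105, 118, 30.3, 36.5 and 33.1 CPM in mice 1 to 5 of WT chow and 55.3, 43.1, 56.4, 26.5 and 56.9 in those of WT NASH. Pnpla2 was at 457, 442, 175, 149 and 66.4 CPM in Pck1-cKO mice 1 to 5 on chow and 174, 108, 138, 95.3 and 197 on the NASH diet. It was higher in Pck1-cKO than in WT on chow (1.99 ± 0.48 log2 units, SE, with adjusted p = 0.0208 by edgeR) and on the NASH diet (1.58 ± 0.48 log2 units, SE, with adjusted p = 0.0412 by edgeR), the latter lost with sex as a term, 1.13 (adjusted p = 0.256). Lipe, hormone-sensitive lipase, was also higher in Pck1-cKO on chow (1.28, edgeR adjusted p = 0.0213) and on the NASH diet (1.81, edgeR adjusted p = 0.00161). Samm50, which encodes a mitochondrial protein and lies 5.00 kb from Pnpla3, was called where Pnpla3 was not. Samm50 was higher in Pck1-cKO chow than WT chow (0.77, edgeR adjusted p = 0.0353) and lower in Pck1-cKO NASH than Pck1-cKO chow (-0.90, edgeR adjusted p = 0.0257). Parvb, 44.8 kb away, was called in none of the 5 edgeR comparisons.

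Hsd17b13 encodes a lipid droplet enzyme that acts on retinol and other lipids. It was at 401, 445, 1505, 632 and 1195 CPM in mice 1 to 5 of WT chow and 234, 247, 328, 548 and 235 in those of WT NASH. Hsd17b13 was at 846, 691, 932, 1565 and 1258 CPM in Pck1-cKO mice 1 to 5 on chow and 718, 629, 844, 548 and 651 on the NASH diet. WT NASH mice 1, 2, 3 and 5 were lower than all other libraries of the study, and WT NASH mouse 4 lay within the range of WT chow, below all Pck1-cKO chow libraries and level with the lowest Pck1-cKO NASH library. Hsd17b13 fell 2.63-fold in WT NASH against WT chow (-1.39 ± 0.36 log2 units, SE, with adjusted p = 0.0254 by edgeR). In Pck1-cKO NASH against WT NASH its log2 change was 1.09 (SE 0.35; adjusted p = 0.0552), just outside the threshold, and was called by DESeq2, 1.08 (adjusted p = 0.0214), and by limma voom, 1.36 (adjusted p = 0.000187). The knockout on chow gave 0.34 (SE 0.35; adjusted p = 0.634), the diet in knockouts -0.64 (SE 0.35; adjusted p = 0.278) and the interaction 0.75 (edgeR adjusted p = 0.766). For the knockout on chow, edgeR called Hsd17b13 higher with sex and length slope as terms and in the 14 libraries of positive slope. By limma voom that difference turned to -0.26, not called, and the interaction was called, 1.62 (adjusted p = 0.0140).

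Hsd17b13 levels also ran with the length slope. The 3 WT chow libraries of negative slope were at 632 to 1505 CPM and the 2 of positive slope at 401 and 445, the 2 Pck1-cKO chow libraries of negative slope were at 1258 and 1565 against 691 to 932 in the other 3. The only WT NASH library of negative slope, also the only male, was the highest of its group. With the slope as a term, Hsd17b13 fell by 0.97 on the log2 scale in WT NASH (adjusted p = 0.0115 by edgeR) and rose in Pck1-cKO NASH against WT NASH, 1.45 (adjusted p = 0.000399). Neither was called with sex as a term, at -1.17 (adjusted p = 0.206) and 0.93 (adjusted p = 0.157) by edgeR. With both terms the values were -0.81 (adjusted p = 0.107) and 1.32 (adjusted p = 0.00357). The knockout difference on the NASH diet was called and the diet difference in WT mice was not. In the 14 libraries of positive slope alone the values were -0.69 (adjusted p = 0.0582) and 1.38 (adjusted p = 0.000122). The diet call was lost without any 1 of WT chow mice 3 and 5, or WT NASH mice 1, 2, 3 and 5 (log2 changes of -1.40 to -1.08, adjusted p = 0.0530 to 0.0941 by edgeR). The part of sex and of the length slope in the Hsd17b13 difference was not tested beyond these fits.

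Hsd17b11, the closest relative of Hsd17b13 and its neighbour at 12.4 kb on chromosome 5, was among the 2 genes with the most similar pattern (r = 0.92 over 20 libraries, and r = 0.94 over the 14 of positive slope), beside Ndufs1, a subunit of mitochondrial complex I (r = 0.93). Hsd17b11 was at 307, 291, 1129, 519 and 733 CPM in mice 1 to 5 of WT chow and 144, 121, 139, 133 and 118 in those of WT NASH. Hsd17b11 was at 1018, 712, 702, 1599 and 1089 CPM in Pck1-cKO mice 1 to 5 on chow and 395, 388, 590.0, 483 and 353 on the NASH diet. All WT NASH libraries of Hsd17b11, male mouse 4 included, were lower than all libraries of the other 3 groups. Hsd17b11 fell in WT NASH (-2.19 ± 0.33 log2 units, SE, with adjusted p = 0.000704 by edgeR), was higher in Pck1-cKO NASH than in WT NASH (1.75 ± 0.33 log2 units, SE, with adjusted p = 0.00250 by edgeR) and fell with the diet in knockouts (-1.21 ± 0.32 log2 units, SE, with adjusted p = 0.0441 by edgeR). All 3 calls held with sex as a term, at -2.02 (adjusted p = 0.0225), 1.63 (adjusted p = 0.0187) and -1.25 (adjusted p = 0.0410) by edgeR, and were lost in males alone, at -2.19 (adjusted p = 0.212), 1.81 (adjusted p = 0.122) and -1.29 (adjusted p = 0.195). How reads of the relatives were assigned is not given in the sources used here.

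Among the 11 relatives and droplet partners of Hsd17b13, all tested, 4 fell and 0 rose in WT NASH, where 5.93% of all tested genes were called. Besides Hsd17b11 these were Hsd17b10, a mitochondrial dehydrogenase (-2.27, the steepest), Plin2, the coat protein of hepatic lipid droplets (-1.81, edgeR adjusted p = 0.0121), and Rdh16, a retinol dehydrogenase (-0.98, edgeR adjusted p = 0.0406). With sex as a term the calls of these 3 were lost, at -1.92 (adjusted p = 0.0797), -1.95 (adjusted p = 0.0758) and -1.28 (adjusted p = 0.119) by edgeR. In Pck1-cKO NASH against WT NASH, 3 were higher (Hsd17b11, Hsd17b4 and Rdh16) and 1 lower (Hsd17b2, -1.34), against 9.65% of all genes, and the call of Hsd17b4 was lost with sex as a term, 0.75 (adjusted p = 0.0982) by edgeR. On chow the knockout raised Hsd17b4, an enzyme of peroxisomal fat oxidation (0.75), and lowered Dhrs3, which returns retinal to retinol (-0.99). In knockouts the diet lowered Hsd17b11 and Plin2 (-1.72, edgeR adjusted p = 0.0287). Of all tested genes 5.53% were called for the knockout on chow and 3.29% for the diet in knockouts. The medians of the 11 were -0.58 for the diet in WT mice and 0.37 for the knockout on the NASH diet, beside 0.01 and 0.00397 over all genes.

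Gckr encodes a regulatory protein of sugar metabolism found in the hepatocyte nucleus. It was at 89.2, 105, 104, 79.8 and 159.8 CPM in mice 1 to 5 of WT chow and 128, 148, 178, 84.9 and 119 in those of WT NASH. Gckr was at 32.3, 22.4, 65.99, 45.2 and 62.5 CPM in Pck1-cKO mice 1 to 5 on chow and 53.1, 90.1, 60.03, 113 and 55.96 on the NASH diet. Every Pck1-cKO chow library was below every WT chow library, and the 2 lowest, mice 1 and 2, were below all other libraries of the study. Gckr fell 2.35-fold in Pck1-cKO chow against WT chow (-1.23 ± 0.30 log2 units, SE, with adjusted p = 0.0213 by edgeR). The call held with sex as a term, -1.60 (adjusted p = 0.00224), with both sex and slope, -1.55 (adjusted p = 0.000509), and in males alone, -1.68 (adjusted p = 0.0125), in log2 units by edgeR. It was lost when WT chow mouse 5, the highest of its group, or Pck1-cKO chow mouse 1 or 2 was left out (-1.04 (adjusted p = 0.0586), -1.13 (adjusted p = 0.0681) and -1.06 (adjusted p = 0.0604) by edgeR), when only the 2 groups were fitted, -1.23 (adjusted p = 0.0752), and in the 14 libraries of positive slope, -1.26 (adjusted p = 0.0758); the direction held in each.

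On the NASH diet the knockout difference in Gckr was -0.82 (SE 0.30; adjusted p = 0.0856), not called, with WT NASH mouse 4 and Pck1-cKO NASH mice 2 and 4 in the shared range. DESeq2 called it, -0.82 (adjusted p = 0.0475), as did limma voom, -0.95 (adjusted p = 0.00604). The diet in knockouts gave 0.71 (SE 0.30; adjusted p = 0.172), a value called with sex as a term, 0.93 (adjusted p = 0.0496). The diet in WT mice gave 0.29 (SE 0.30; adjusted p = 0.586), a direction that turned with sex as a term, -0.32 (adjusted p = 0.694). The interaction was 0.41 (edgeR adjusted p = 0.879), so the knockout difference was not shown to differ between the diets.

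**Figure D3:**
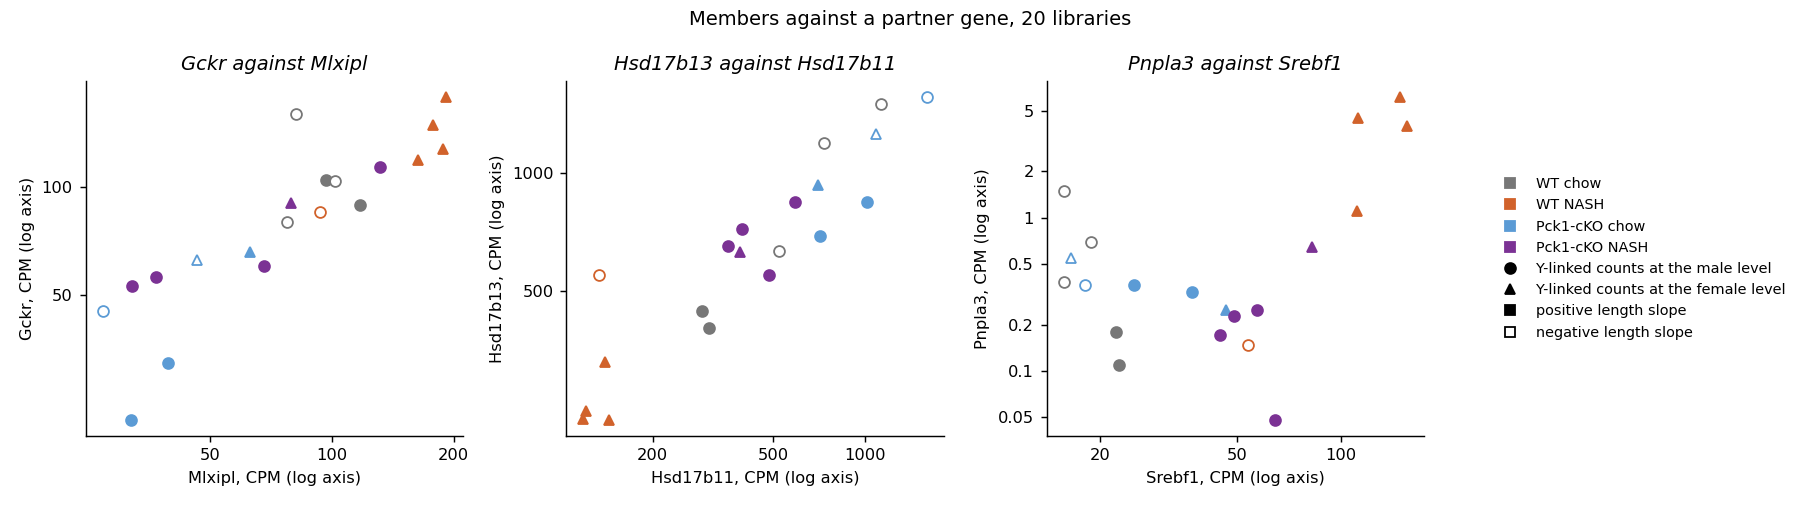
Level of Gckr against Mlxipl, Hsd17b13 against Hsd17b11 and Pnpla3 against Srebf1 in the 20 libraries (CPM, log axes); colours give the group, triangles the libraries at the female level of Y-linked counts, and open symbols a negative length slope. Gckr ran with Mlxipl, both below all WT chow libraries in Pck1-cKO chow (r = 0.87), Hsd17b13 and Hsd17b11 are lowest together in 4 of the 5 WT NASH libraries (r = 0.92), and Pnpla3 is high in the 4 female WT NASH libraries of highest Srebf1 (r = 0.50).

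The genes with the patterns most like Gckr were Adra1b, an adrenergic receptor (r = 0.93), and Akr1d1, an enzyme of bile acid synthesis (r = 0.92). Mlxipl, the sugar-responsive transcription factor of lipid and glucose metabolism genes, followed Gckr with r = 0.87. Mlxipl ranged over 77.8 to 118 CPM in the WT chow group, 93.6 to 192 in the WT NASH group, 27.2 to 62.9 in Pck1-cKO chow and 32.1 to 132 in Pck1-cKO NASH. It was lower in Pck1-cKO than in WT on chow (-1.19 ± 0.33 log2 units, SE, with adjusted p = 0.0367 by edgeR), where the groups did not overlap, and on the NASH diet (-1.23 ± 0.33 log2 units, SE, with adjusted p = 0.0231 by edgeR), the latter a call lost with sex as a term, -0.79 (adjusted p = 0.192). Of the 9 tested genes of hexose handling listed with Gckr, the knockout on chow raised 1, Gys2, the liver glycogen synthase (1.15), and lowered 1, Pygl, the liver glycogen phosphorylase (-1.10). Of all tested genes 5.53% were called there. On the NASH diet the knockout raised Gys2 (1.49) and lowered Khk, the fructose kinase (-1.11), and Pygl (-1.56), against 9.65% of all genes. The Khk call was lost with sex as a term, -1.03 (adjusted p = 0.1202) by edgeR. The diet lowered Gys2 in WT mice (-2.11) and in knockouts (-1.77), where 5.93% and 3.29% of all genes were called.

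**Figure D4:**
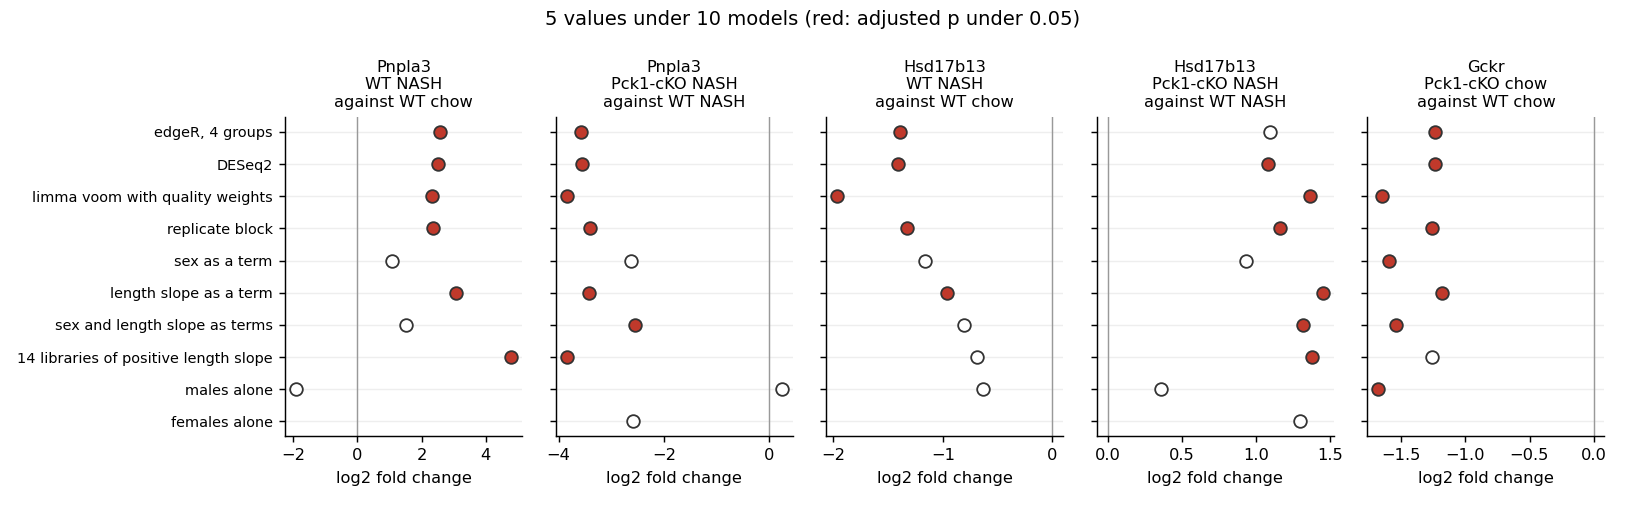
Log2 fold change of 5 member results under 10 models, each panel on its own axis; red points have an adjusted p under 0.05, and a model with no library in one of the groups has no point. Gckr for the knockout on chow stays on 1 side of 0 and is called in 8 of the 9 models drawn, Pnpla3 crosses 0 in males alone in both comparisons, and Hsd17b13 keeps its sign in both.

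Tm6sf2 encodes a membrane protein of the endoplasmic reticulum that helps load lipid onto lipoprotein particles. It was at 26.95, 28.7, 13.7, 12.3 and 16.1 CPM in mice 1 to 5 of WT chow and 38.6, 38.3, 33.6, 11.9 and 32.3 in those of WT NASH. Tm6sf2 was at 42.1, 41.2, 39.4, 31.9 and 23.2 CPM in Pck1-cKO mice 1 to 5 on chow and 26.4, 36.5, 41.8, 18.9 and 27.7 on the NASH diet. WT chow mice 3, 4 and 5 and WT NASH mouse 4 were the 4 lowest libraries, and all 4 have a negative length slope. None of the 5 edgeR comparisons called Tm6sf2: the diet in WT mice gave 0.66 (SE 0.30; adjusted p = 0.206), the knockout on chow 0.86 (SE 0.31; adjusted p = 0.108), the knockout on the NASH diet -0.04 (edgeR adjusted p = 0.956) and the diet in knockouts -0.23 (edgeR adjusted p = 0.654). The interaction was -0.90 (SE 0.43), with an unadjusted edgeR p of 0.0497 and an adjusted p of 0.605. With the slope as a term the knockout difference on chow was 0.70 (adjusted p = 0.0413) by edgeR. By limma voom Tm6sf2 was called for the diet in WT mice, 1.11 (adjusted p = 0.00186), for the knockout on chow, 1.32 (adjusted p = 0.00131), and for the interaction, -1.52 (adjusted p = 0.0104).

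The genes most like Tm6sf2 over the 20 libraries were Pmf1 (r = 0.89) and the kinase gene Akt1 (r = 0.89); over the 14 libraries of positive slope these were r = 0.69 and 0.51. Sugp1, which ends 0.577 kb from the start of Tm6sf2 on the same strand, and the paralog Tm6sf1 were called in none of the 5 edgeR comparisons. Of the 8 tested genes of lipoprotein assembly and secretion listed with Tm6sf2, 1 was called in 1 comparison. Mttp, the transfer protein that lipidates apolipoprotein B, fell with the diet in knockouts (-0.98 ± 0.20 log2 units, SE, with adjusted p = 0.0170 by edgeR). In that comparison 3.29% of all tested genes were called.

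Mboat7 encodes the acyltransferase that puts arachidonate onto lysophosphatidylinositol. It was at 23.9, 23.9, 20.2, 19.8 and 16.3 CPM in mice 1 to 5 of WT chow and 32.7, 35.7, 30.2, 23.8 and 34.03 in those of WT NASH. Mboat7 was at 21.1, 19.4, 34.2, 13.9 and 16.3 CPM in Pck1-cKO mice 1 to 5 on chow and 25.8, 30.9, 30.98, 34.98 and 26.4 on the NASH diet. In WT mice 4 NASH libraries were above all chow libraries and mouse 4 fell just within them, and in knockouts Pck1-cKO chow mouse 3, a female, stood inside the NASH range while the other 4 were below it. Mboat7 was not called in any of the 5 edgeR comparisons: the diet gave 0.59 in WT mice (SE 0.21; adjusted p = 0.0958) and 0.50 in knockouts (SE 0.21; adjusted p = 0.159), and the knockout 0.01 on chow (edgeR adjusted p = 0.983) and -0.07 on the NASH diet (edgeR adjusted p = 0.862). The diet in WT mice was called by DESeq2, 0.58 (adjusted p = 0.0497), and by limma voom, 0.73 (adjusted p = 0.00178), and by edgeR without WT NASH mouse 4, 0.67 (adjusted p = 0.0399), or without Pck1-cKO chow mouse 3, 0.59 (adjusted p = 0.0422). The diet in knockouts was called by limma voom, 0.48 (adjusted p = 0.0392), and by edgeR without Pck1-cKO chow mouse 3, 0.75 (adjusted p = 0.0235). The values for the diet with sex as a term were 0.29 (adjusted p = 0.646) in WT mice and 0.60 (adjusted p = 0.0879) in knockouts.

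Sema4a (r = 0.96) and Smoc1 (r = 0.95) followed Mboat7 most closely; mean CPM of Sema4a was 31.4 in WT chow, 65.8 in WT NASH, 31.2 in Pck1-cKO chow and 51.6 in Pck1-cKO NASH. Tmc4, which starts 0.236 kb from the end of Mboat7 on the same strand, was called in none of the 5 edgeR comparisons. Of 8 tested relatives in phospholipid acyl exchange, Lpcat3, which loads polyunsaturated chains onto phosphatidylcholine, was lower with the diet in WT mice (-0.63, edgeR adjusted p = 0.0154) and in knockouts (-0.69, edgeR adjusted p = 0.0191). Acsl4, which activates arachidonate, was higher in Pck1-cKO on chow (1.48, edgeR adjusted p = 0.0243) and on the NASH diet (1.22, edgeR adjusted p = 0.0421). With sex as a term the calls of Lpcat3 in WT mice, -0.54 (adjusted p = 0.192), and of Acsl4 on the NASH diet, 0.86 (adjusted p = 0.189), were lost by edgeR. The other 6 were called in no comparison. Of all tested genes 5.93% and 3.29% were called for the diet in WT mice and in knockouts. For the knockout on chow and on the NASH diet the shares were 5.53% and 9.65%.

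Mertk encodes a receptor tyrosine kinase with which macrophages recognise dying cells through the bridging ligands Gas6 and protein S. It was at 28.1, 37.05, 24.2, 25.5 and 20.1 CPM in mice 1 to 5 of WT chow and 39.97, 31.8, 37.9, 16.6 and 27.8 in those of WT NASH. Mertk was at 38.3, 40.7, 39.7, 24.4 and 30.6 CPM in Pck1-cKO mice 1 to 5 on chow and 37.1, 29.4, 32.04, 29.3 and 37.7 on the NASH diet. All 4 groups overlapped, and the lowest library was WT NASH mouse 4. Mertk was called in none of the 5 edgeR comparisons, with log2 changes of 0.19 (SE 0.22; adjusted p = 0.628) for the diet in WT mice, 0.36 (SE 0.22; adjusted p = 0.381) for the knockout on chow, 0.10 (SE 0.22; adjusted p = 0.814) for the knockout on the NASH diet and -0.07 (SE 0.22; adjusted p = 0.866) for the diet in knockouts. By limma voom the knockout on chow was called, 0.61 (adjusted p = 0.0129). In whole liver, fewer cells of a type and less RNA per cell cannot be told apart. The 10 listed macrophage markers, all detected, summed to 362 to 1858 CPM in WT chow livers, 574 to 1528 in WT NASH, 556 to 1924 in Pck1-cKO chow and 419.6 to 563 in Pck1-cKO NASH; their part in the Mertk level was not tested.

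Gas6 was at 36.96 ± 16.01 CPM in the WT chow group, 61.7 ± 27.8 in the WT NASH group, 33.6 ± 13.03 in Pck1-cKO chow and 60.8 ± 24.5 in Pck1-cKO NASH (mean ± SD, n = 5), and Axl, the related receptor, at 23.9 ± 10.7, 37.8 ± 3.53, 30.9 ± 7.60 and 34.03 ± 7.48. Neither was called in the 5 edgeR comparisons. The diet gave Gas6 log2 changes of 0.74 in WT mice (edgeR adjusted p = 0.220) and 0.85 in knockouts (edgeR adjusted p = 0.164). Of 10 tested genes of dying-cell clearance, 2 were called for the knockout on the NASH diet, where 9.65% of all tested genes were called. Mfge8, a secreted bridging protein, was higher (1.43 ± 0.29 log2 units, SE, with adjusted p = 0.00515 by edgeR). Timd4, a phosphatidylserine receptor of resident macrophages, was lower (-1.42 ± 0.43 log2 units, SE, with adjusted p = 0.0408 by edgeR), with no overlap for Timd4. The Timd4 call was lost with sex as a term, -1.64 (adjusted p = 0.0504) by edgeR. Mfge8 was also higher with the diet in knockouts (1.17, edgeR adjusted p = 0.0351). Mmp14 (r = 0.90) and Leng8 (r = 0.89) followed Mertk most closely over the 20 libraries, with r = 0.66 and 0.60 in the 14 of positive slope.

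Lyplal1 encodes a small serine hydrolase related to the enzymes that remove palmitate from proteins. It was at 9.30, 9.48, 14.9, 16.8 and 27.8 CPM in mice 1 to 5 of WT chow and 12.4, 14.1, 16.8, 22.7 and 10.01 in those of WT NASH. Lyplal1 was at 9.13, 10.9, 10.8, 17.4 and 27.7 CPM in Pck1-cKO mice 1 to 5 on chow and 16.8, 14.8, 12.4, 17.5 and 16.2 on the NASH diet. The 4 groups overlapped, and the 6 libraries of negative length slope were at 14.9 to 27.8 CPM, the highest within each group that held one. Its log2 changes lay between -0.05 and 0.04 in the 4 comparisons, with edgeR adjusted p of 0.949 for the diet in WT mice, 0.958 for the knockout on chow, 0.956 for the knockout on the NASH diet and 0.954 for the diet in knockouts. Intervals of 2 SE were -0.69 to 0.59 for the diet in WT mice and -0.60 to 0.68 for the knockout on the NASH diet, in log2 units. In the 14 libraries of positive slope the diet in knockouts was called, 0.60 (adjusted p = 0.0386) by edgeR. Dap3 (r = 0.87) and Tmem176b (r = 0.86) followed Lyplal1 most closely. Of the 6 tested thioesterase relatives, Abhd17c was higher in WT NASH than in WT chow (0.90, edgeR adjusted p = 0.00860) and lower in Pck1-cKO NASH than in WT NASH (-0.65, edgeR adjusted p = 0.0345), and the other 5 were not called. Of all tested genes 5.93% and 9.65% were called in these comparisons. Both calls of Abhd17c were lost with sex as a term, at 0.88 (adjusted p = 0.0806) and -0.64 (adjusted p = 0.0960) by edgeR.

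A further 33 tested orthologs of genes from fatty liver genetics were counted beside the 7. Of these, 5 were called for the diet in WT mice (2 higher, 3 lower), 6 for the knockout on chow (3 and 3), 5 for the knockout on the NASH diet (2 and 3), 7 for the diet in knockouts (2 and 5) and 0 for the interaction, where the shares of all tested genes were 5.93%, 5.53%, 9.65%, 3.29% and 0.139%. With sex as a term the counts were 1 for the diet in WT mice (0 and 1), 6 for the knockout on chow (3 and 3), 3 for the knockout on the NASH diet (1 and 2) and 7 for the diet in knockouts (2 and 5). Ppp1r3b, which targets a phosphatase to glycogen, was called in all 4 comparisons: higher with the diet in WT mice (2.30 ± 0.44 log2 units, SE, with adjusted p = 0.00379 by edgeR) and in knockouts (1.87), and lower in Pck1-cKO on chow (-1.89) and on the NASH diet (-2.32). Its call for the diet in WT mice was lost with sex as a term, 1.42 (adjusted p = 0.140) by edgeR. Tor1b showed the steepest called fall with the diet in WT mice (-1.67 ± 0.22 log2 units, SE, with adjusted p = 0.000154 by edgeR) and was higher in Pck1-cKO NASH than in WT NASH (0.98). Lepr, the leptin receptor, had the largest called log2 changes of the list, higher in Pck1-cKO chow (3.29 ± 0.70 log2 units, SE, with adjusted p = 0.00911 by edgeR) and lower with the diet in knockouts (-3.77, edgeR adjusted p = 0.0101).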

How the data were processed

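RNA from 20 mouse livers was sequenced, 5 per group. The authors deposited raw counts per gene symbol (whole numbers), 1 column per mouse. Per the submitters' processing notes, HISAT2 2.0.4 and the build GRCm38 were used. The counting tool, annotation and strand setting were not given in the sources used here. Groups came from the labels, which name separate mice. The analysis used edgeR 4.0.16 under R 4.3.3: filterByExpr (minimum count 10) kept 14440 of 46095 symbols, TMM scaling and 1 quasi-likelihood model over the 4 groups were used, and the common biological coefficient of variation was 39.0%. SEs come from the F statistic. The procedure was tested on simulated data. Alternatives were RLE scaling, TMM without the 20 most abundant genes, other filters, DESeq2 1.42.0, limma 3.58.1 voom, the replicate number as a block, sex and length slope as terms, single sexes, and each library left out.

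The labels did not give sex, so it was read from at least 100 counts over 4 Y-linked genes. The length slope used 9499 genes whose average log2 CPM was 2 or more, with GENCODE M21 lengths for 13477 tested genes (93.3%). Pck1-cKO NASH mice 1 and 5 were the most alike pair of a group, with a chi-square per gene of 7.82 where the next pair had 20.6 and sampling noise gives 1, and were kept as separate samples. Each of the 7 members is named; so are the 2 genes of highest Pearson correlation with each (log2 CPM, prior count 2, mean of at least 5 CPM, predicted genes passed over), the most raised and most lowered called genes of each list, and Srebf1, Mlxipl, Gas6, Axl, Hsd17b11, Pnpla2, Tm6sf1 and Pck1. A further gene named by this rule is not reported here and is left out of the counts of its list. Other genes named as called members of a list, and neighbouring genes, complete counts and were named after their values were seen. The members and the gene lists were chosen with earlier results of these data known. Levels per kb use the union of GENCODE exons, which overstates the length of genes with many transcript forms. Reads carry no molecular identifiers in the table.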

Additional observations from a re-analysis of the deposited data

Results flagged for a closer look

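Tm6sf2 in WT NASH mouse 4 was at 11.9 CPM, far below the other 4 mice of its group, at 32.3 to 38.6 CPM. Its gap to the nearest library, as a share of the range of the group, passed Dixon's critical value of 0.71 for 5 samples. All 28 combinations of a member and a group were examined and 1 was beyond the value; chance alone marks about 1 in 20 such groups. The same library is the only male of its group and the only one with a negative length slope, and their part in the Tm6sf2 level was not tested. Without it the diet difference of Tm6sf2 in WT mice was 0.87 (adjusted p = 0.0368) in log2 units by edgeR, against 0.66 (adjusted p = 0.206) with it.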

How the results depend on the processing

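Leaving out each of the 20 libraries in turn, Pnpla3 on the NASH diet was called in 20 of 20 fits, Gckr on chow in 17, Hsd17b13 for the diet in WT mice in 14 and Pnpla3 for the diet in WT mice in 12. The 14 libraries of positive slope were chosen after seeing the data. For the diet in WT mice the number of members called was 2, and became 0 with only the 2 groups fitted, sex as a term, both terms or males alone, 1 with a mean of at least 5 CPM or the 14 libraries of positive slope, 3 with DESeq2, 4 with limma voom, and 0 to 4 with 1 library left out. For the knockout on chow the number of members called was 1 (Gckr). It became 0 with only the 2 groups fitted, 2 with the replicate block, slope as a term or both terms, and 3 with limma voom. With 1 library left out it was 0 to 2. The second gene was Tm6sf2 with the replicate block or slope, and Hsd17b13 with both terms. In the 14 libraries of positive slope it stayed at 1, with Hsd17b13 called in place of Gckr. For the knockout on the NASH diet the number of members called was 1, and became 0 with a mean of at least 5 CPM, sex as a term, males alone or females alone, 2 with only the 2 groups fitted, the replicate block, slope as a term or both terms, 3 with DESeq2, limma voom or the 14 libraries of positive slope, and 1 to 2 with 1 library left out. For the diet in knockouts the number of members called was 0, and became 1 with sex as a term, both terms or the 14 libraries of positive slope, 2 with limma voom, and 0 to 1 with 1 library left out. For the interaction the number of members called was 0, and became 2 with limma voom. The cause of these changes was not tested. Limma voom called more genes outside the members too. Of the 33 further tested orthologs it called 10 higher and 8 lower for the diet in WT mice, where the main fit called 2 and 3. For the knockout on chow it called 12 higher and 5 lower, where the main fit called 3 and 3. Some log2 differences turned sign; of the 4 member results called over the 20 libraries, Pnpla3 did so, in males alone. With the replicate block these were Lyplal1 0.062 (diet in WT mice), Mboat7 -0.019 (knockout on chow), Tm6sf2 0.0071 (knockout on the NASH diet). With sex as a term these were Gckr -0.32 (diet in WT mice), Mboat7 -0.15 (knockout on chow), Tm6sf2 0.20 (knockout on the NASH diet), Mboat7 0.16 (knockout on the NASH diet), Mboat7 0.31 (interaction). With slope as a term these were Mertk -0.050 (diet in WT mice), Lyplal1 0.37 (diet in WT mice), Mboat7 -0.11 (knockout on chow), Lyplal1 0.20 (knockout on chow), Mertk -0.053 (knockout on the NASH diet). With both terms these were Gckr -0.23 (diet in WT mice), Mertk -0.23 (diet in WT mice), Lyplal1 0.33 (diet in WT mice), Mboat7 -0.26 (knockout on chow), Lyplal1 0.18 (knockout on chow), Mboat7 0.017 (knockout on the NASH diet), Mboat7 0.27 (interaction). With males alone these were Pnpla3 -1.90 (diet in WT mice), Tm6sf2 -0.75 (diet in WT mice), Gckr -0.36 (diet in WT mice), Mertk -0.72 (diet in WT mice), Lyplal1 0.51 (diet in WT mice), Mboat7 -0.19 (knockout on chow), Pnpla3 0.25 (knockout on the NASH diet), Tm6sf2 1.30 (knockout on the NASH diet), Mboat7 0.34 (knockout on the NASH diet), Lyplal1 -0.50 (knockout on the NASH diet), Pnpla3 0.87 (interaction), Tm6sf2 0.32 (interaction), Mboat7 0.53 (interaction), Mertk 0.70 (interaction), Lyplal1 -0.18 (interaction). With the 14 libraries of positive slope these were Lyplal1 0.52 (diet in WT mice), Pnpla3 1.15 (knockout on chow), Lyplal1 0.14 (knockout on chow), Mertk -0.057 (knockout on the NASH diet). With limma voom these were Hsd17b13 -0.26 (knockout on chow). With females alone these were Tm6sf2 0.054 (knockout on the NASH diet), Mertk -0.20 (knockout on the NASH diet), Pnpla3 0.74 (diet in knockouts), Tm6sf2 0.23 (diet in knockouts), Lyplal1 -0.36 (diet in knockouts). With Pck1-cKO NASH mice 1 and 5 summed these were Tm6sf2 0.0083 (knockout on the NASH diet). Over the fits with 1 library left out the ranges of values that crossed 0 were -0.25 to 0.26 for Lyplal1 (diet in WT mice), -0.86 to 0.16 for Pnpla3 (knockout on chow), -0.23 to 0.13 for Mboat7 (knockout on chow), -0.35 to 0.28 for Lyplal1 (knockout on chow), -0.24 to 0.092 for Tm6sf2 (knockout on the NASH diet), -0.079 to 0.22 for Lyplal1 (knockout on the NASH diet), -0.054 to 0.21 for Mertk (knockout on the NASH diet), -0.10 to 0.34 for Lyplal1 (diet in knockouts), -0.24 to 0.41 for Lyplal1 (interaction), -0.20 to 0.16 for Mboat7 (interaction). Pnpla3 was not tested under a mean of at least 5 CPM, and females alone gave no value for comparisons with WT chow, which held none. Same-numbered mice did not vary together (correlations of their deviations from -0.41 to 0.52 over 30 pairs, 13 of them over 0.1, 8 highest with the own number), so the replicate block is an alternative only. Depth limits Pnpla3, which had 1 to 103 counts per library.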

Other observations

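Log2 CPM of the 7 genes was compared among themselves over the 20 libraries, as a description of libraries that share groups, sex and length slope. The highest Pearson correlation of the 21 pairs was r = 0.75 for Tm6sf2 and Mertk, followed by r = 0.50 for Pnpla3 and Gckr. The lowest was r = -0.70 for Mboat7 and Hsd17b13.

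Within Pck1-cKO NASH, where 5 of 5 libraries had a positive length slope, Gckr separated the mice: mice 2 and 4 were at 90.1 and 113 CPM of Gckr, and mice 1, 3 and 5 at 53.1, 60.0 and 56.0. Mlxipl was at 32.1, 79.5, 68.1, 132 and 36.8 CPM in mice 1 to 5. It was highest in the same 2 mice, but mouse 3 was nearer to mouse 2 than to mice 1 and 5. Mouse 2 is the only female of the group, and mice 1 and 5 were the most alike pair of a group. Mertk was at 37.1, 29.4, 32.0, 29.3 and 37.7 CPM in mice 1 to 5, lowest in mice 2 and 4.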
